A study of Arabidopsis thaliana with 3 samples.

Results

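The 154 loci described here had low transcript levels in the inflorescence of Arabidopsis thaliana and clearly higher levels in both silique and leaf. They were chosen by their measured values among 33857 loci. A locus belonged to the set when it lay on chromosomes 1 to 5, had at least 5 FPKM (sequenced fragments per unit of transcript length and of library size) in both silique and leaf, and had at least 4 times as much (FPKM + 1) in each of those organs as in inflorescence. Of the 33857 loci, 33587 lay on these chromosomes and 13337 of those passed the minimum of 5 FPKM in silique and leaf, so the set is 1.15% of the loci that could enter it. Because the levels themselves selected the loci, the levels below in silique, leaf and inflorescence are a description and carry no test.

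The libraries came from silique (the fruit, which encloses the seeds), leaf, and inflorescence (the shoot tip bearing buds and flowers). All plants were untransformed Col-0, the standard laboratory accession, kept at 16 hours of light per day. Every plant had been bombarded with gold particles carrying no DNA at an age of 3 weeks and was harvested 18 days later, at 5.5 weeks, so the bombardment is common to all organs. Strand-specific sequencing of total RNA gave 1 library per organ. There were therefore no replicates, no p-value or error was computed, and every ratio compares 3 single libraries. The labels do not say how many plants or which time of day stand behind each organ, and depth is unknown.

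As a check of the organ labels, all 7 silique markers that could be placed were highest in silique, all 4 leaf markers outside the set in leaf and all 8 inflorescence markers in inflorescence. The other leaf markers, CYP79F1 and FT, are among the 154 loci; CYP79F1 was highest in leaf and FT in silique. Since each library is a whole organ, fewer cells of a type and less RNA per cell cannot be told apart. A young flower cluster holds many dividing and non-green cells, whereas the leaf blade and the green wall of the fruit both photosynthesize. The silique itself grows out of the pistil of the flower. Aliphatic glucosinolates, defence compounds of the cabbage family made from methionine, and the chlorophyll-binding antenna proteins of the thylakoid are the best represented functions below.

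The files give intervals on the TAIR10 build with no gene name and no strand. By position, 112 of the 154 loci matched a single reference gene, and all 112 are protein-coding, as are 99.0% of the 10187 named loci that passed the minimum. Of these named loci 1.10% met the rule. Some named intervals also touch a second gene, as those of HIR2 with VDAC1 and UGT74F2 with AT2G43830 do. Whether the second gene adds to such a value cannot be told. Another 32 loci lie at 30 positions that several identifiers share, usually a pair, and 10 touch several or partly overlapping genes. For the shared positions it cannot be told which gene a value belongs to, so their genes are mentioned only as lying in the interval.

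The set was chosen on its levels in silique, leaf and inflorescence, so the comparisons of level here describe that choice and carry no test. Its median was 30.1 FPKM in silique, 62.3 FPKM in leaf and 3.40 FPKM in inflorescence. The other 13183 loci with at least 5 FPKM in silique and leaf had medians of 23.5, 25.4 and 21.7 FPKM in silique, leaf and inflorescence. Ranked among all nuclear loci, the median member stood at percentile 82.3 in silique, 91.0 in leaf and 47.7 in inflorescence. The 154 loci carried 1.55% of the summed FPKM in silique, 2.10% in leaf and 0.233% in inflorescence. In inflorescence, 6 of the 154 members were listed at 0 FPKM, 38 were under 1 FPKM and 99 under 5 FPKM, while 4 still had 100 FPKM or more.

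Most members stood not far past the limit. The smaller of the silique and leaf ratios to inflorescence, on the (FPKM + 1) scale used throughout, had a median of 5.14-fold, and it reached 5-fold in 87 loci, 8-fold in 35 and 16-fold in 9. This scale understates the ratio of weakly expressed loci. Just inside the limit, AT1G76955 had 12.6 FPKM in silique, 86.8 FPKM in leaf and 2.40 FPKM in inflorescence, a smaller ratio of 4.01-fold. Just outside it was PMSR2, a peptide methionine sulfoxide reductase, with 33.1 FPKM in silique, 133 FPKM in leaf and 7.56 FPKM in inflorescence, or 3.98-fold. IGMT4, an indole glucosinolate methyltransferase, missed it as narrowly with 9.87 FPKM in silique, 117 FPKM in leaf and 1.73 FPKM in inflorescence. AT5G41740 at 3.97-fold and CIPK4, a protein kinase, at 3.95-fold came next outside. No gap in the values separates the set from its neighbours.

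**Figure D1:**
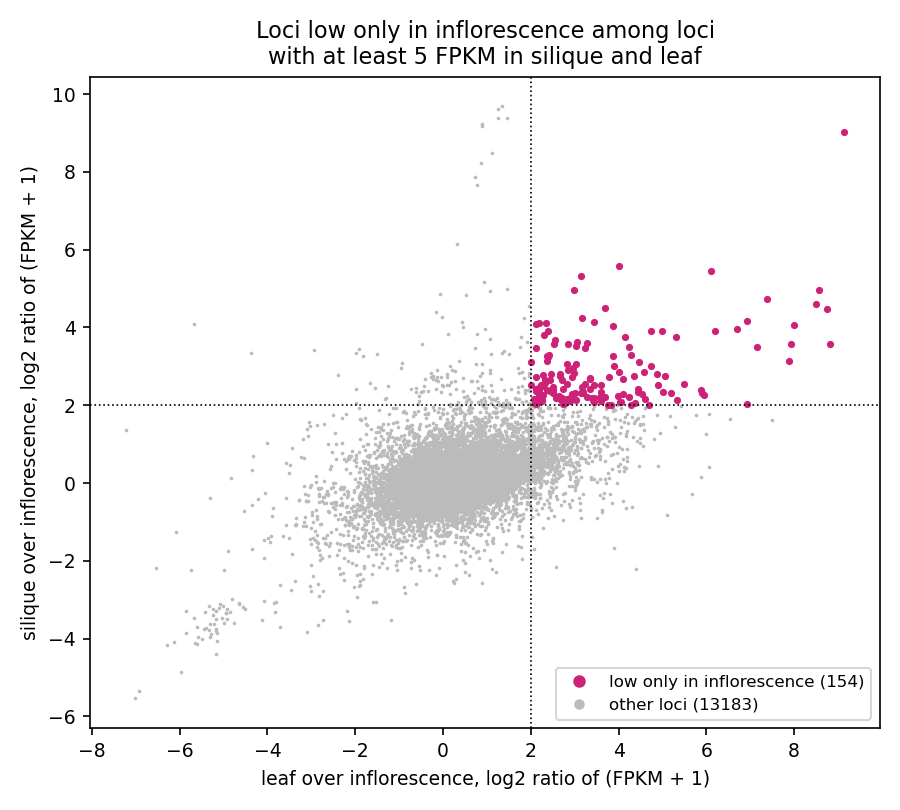
Each point is a locus with at least 5 FPKM in silique and leaf; the x axis is the log2 ratio of leaf over inflorescence and the y axis that of silique over inflorescence, both on (FPKM + 1), with dotted lines at the 4-fold limits. The 154 members fill the upper right corner next to the main cloud of 13183 other loci, and the isolated point at the far upper right is AT2G13422.

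Each condition of the rule was also counted singly, over loci with at least 5 FPKM in either organ compared, a wider base than that of the rule. Silique exceeded inflorescence by at least 4-fold at 7.20% of the 17760 loci with at least 5 FPKM in either, and leaf did so at 8.06% of 17411. The same rule turned to the other organs gave 62 loci low only in silique, 0.464% of 13370 loci with at least 5 FPKM in the other organs, and 801 low only in leaf, 5.56% of 14418. The 154 loci were spread over the chromosomes, with 39, 23, 32, 23 and 37 on chromosomes 1 to 5, between 1.12% and 1.21% of the loci that passed the minimum on each.

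The rule did not fix the balance between silique and leaf, and there the set leaned to leaf. Leaf was above silique in 104 of 154 members (67.5%), against 55.0% of the other loci that passed the minimum. The median log2 ratio of silique over leaf was -0.65 in the set and -0.09 in the others. Leaf exceeded silique by at least 4-fold in 31 members, or 20.1%, where 3.59% of all 13337 loci did so. Silique exceeded leaf by at least 4-fold in 1 member, or 0.649%, where 2.53% of all loci did so. A requirement of 4-fold over inflorescence in both organs leaves room for a high value in either, so these shares describe the set and were not tested.

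At the leaf end stood genes with a strong leaf transcript and a moderate silique one. AT3G22235, which the reference leaves without a symbol, had 33.0 FPKM in silique, 1294 FPKM in leaf and 1.86 FPKM in inflorescence. AK3, an aspartate kinase at the entry to the aspartate-derived amino acids, had 20.6 FPKM in silique, 440 FPKM in leaf and 0.804 FPKM in inflorescence. AT1G76960 had 16.2 FPKM in silique, 468 FPKM in leaf and 0.972 FPKM in inflorescence. In all of these, silique sat between the other organs and much nearer to inflorescence than to leaf in absolute level. The end favouring silique was shorter. Its extreme was the unnamed locus on chromosome 1 at 23136369 to 23137191, which touches AT1G62510 and AT1G62515 and had 108 FPKM in silique, 23.4 FPKM in leaf and 1.75 FPKM in inflorescence. LTI30, a dehydrin that gathers in cold or dry tissue, followed with 27.6 FPKM in silique, 6.31 FPKM in leaf and 0.692 FPKM in inflorescence.

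**Figure D2:**
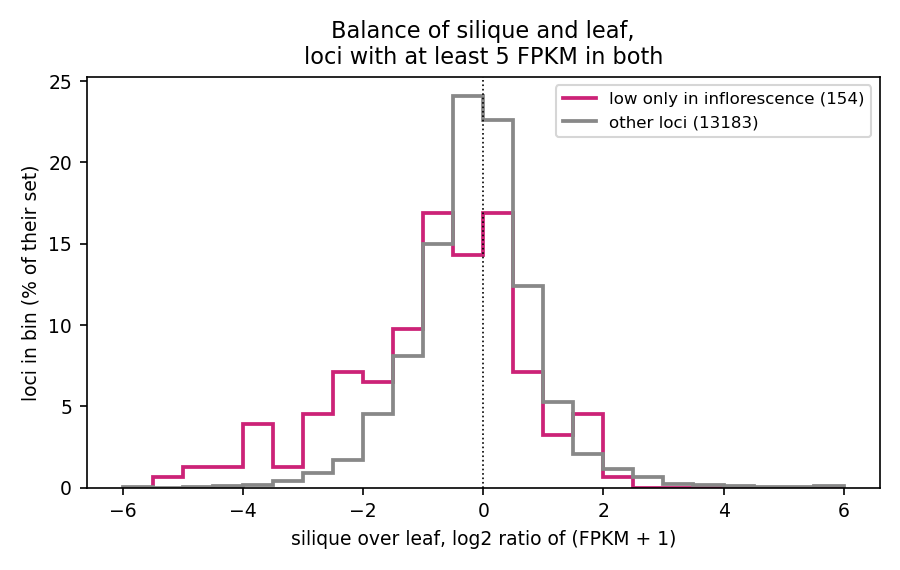
The x axis is the log2 ratio of silique over leaf on (FPKM + 1) in bins of equal width, and the y axis the percentage of each set in the bin, for the 154 members and the 13183 other loci with at least 5 FPKM in silique and leaf. The members' outline extends further to the left, the leaf side, where 31 of them lie at or beyond 4-fold.

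Of 22 gene lists compiled by role, 10 had a member and 12 had none, and 25 of the 112 named members stood in a list. The lists were chosen with earlier results of these data known, so their shares are a description and were not tested. The share of each list is taken among its named genes with at least 5 FPKM in silique and leaf, to be read against 1.10% over all named loci. Aliphatic glucosinolate synthesis gave the highest share, 9 of 18 genes, and the light reactions of photosynthesis 5 of 25. Cold, drought and abscisic acid response gave 3 of 21 and the circadian clock 2 of 18. A single gene came from each of 6 lists: heat stress (1 of 6), salicylate and pathogen response (1 of 8), flowering time (1 of 8), light signalling (1 of 17), nutrition (1 of 24) and starch and sugar transport (1 of 26). None of 15 carbon fixation genes, 15 photorespiration genes, 14 chlorophyll genes, 21 jasmonate genes, 13 leaf senescence genes and 12 wax genes was a member, and neither was any of the 11 housekeeping genes. At a share of 1.10%, lists this small would mostly hold none, so the absence sets none of them apart.

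**Figure D3:**
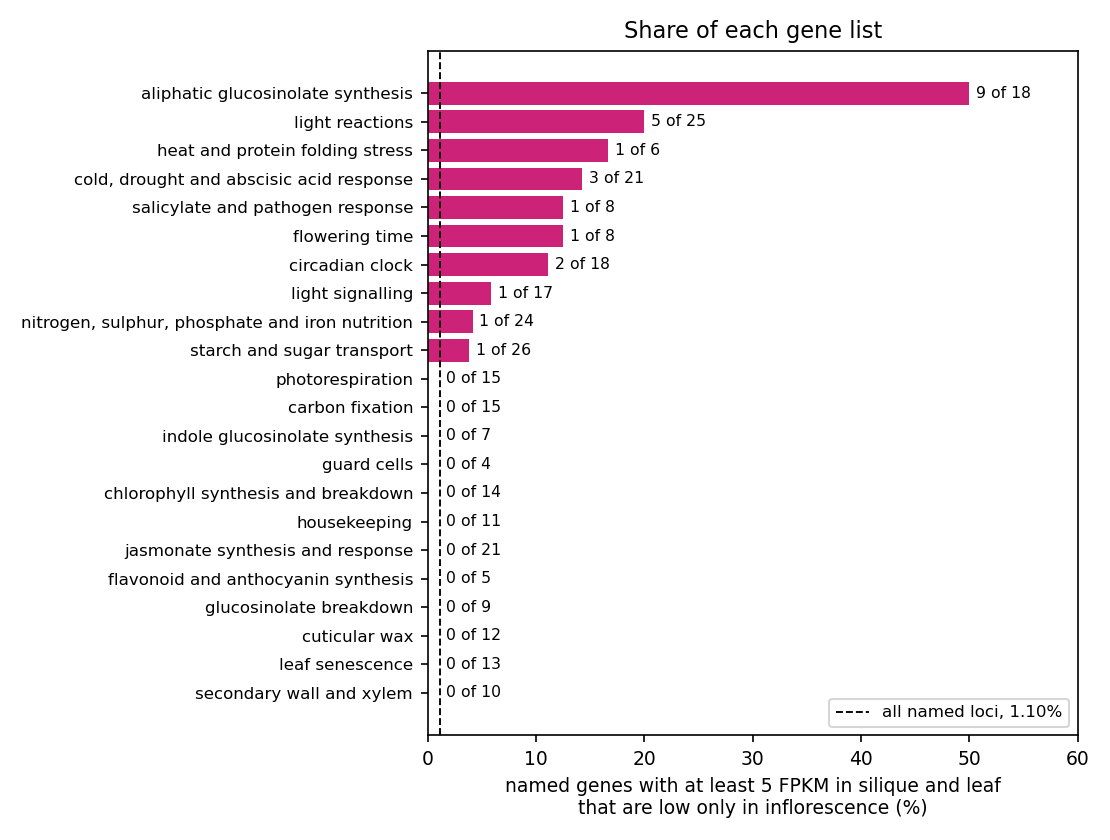
Bars give, for each of the 22 lists by role, the percentage of named genes with at least 5 FPKM in silique and leaf that were low only in inflorescence, with the count beside each bar and a dashed line at 1.10%, the share over all named loci. Aliphatic glucosinolate synthesis stands highest with 9 of 18, followed by the light reactions with 5 of 25.

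Aliphatic glucosinolates are built in stages: methionine is lengthened, the long-chain amino acid is turned into the core structure, and the side chain is then modified. Members came from each stage. For chain elongation, MAM1, the methylthioalkylmalate synthase that adds the carbon unit, had 45.6 FPKM in silique, 721 FPKM in leaf and 1.81 FPKM in inflorescence. IMS2, a related synthase also called MAM3 that lies next to it on chromosome 5 (7703092 to 7706896 for MAM1, 7718121 to 7721839 for IMS2), had 12.3 FPKM in silique, 25.3 FPKM in leaf and 0.345 FPKM in inflorescence. IPMI2, a small subunit of the isomerase of the same cycle, had 67.0 FPKM in silique, 460 FPKM in leaf and 2.78 FPKM in inflorescence. In every one leaf was highest and inflorescence lowest by a wide margin. BAT5, a bile acid transporter homologue that carries the keto acids across the chloroplast envelope, repeated the order with 16.7 FPKM in silique, 214 FPKM in leaf and 2.58 FPKM in inflorescence.

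Core formation begins with the cytochromes P450 CYP79F1 and CYP79F2, which convert the elongated methionines to aldoximes, and goes on with CYP83A1, which oxidizes the aldoximes. CYP79F1, at 5608807 to 5611426 on chromosome 1, had 40.1 FPKM in silique, 607 FPKM in leaf and 0.692 FPKM in inflorescence. Its neighbour CYP79F2, at 5605159 to 5607473, was far lower with 7.34 FPKM in silique, 28.4 FPKM in leaf and 0.718 FPKM in inflorescence. CYP83A1 had 51.0 FPKM in silique, 662 FPKM in leaf and 3.63 FPKM in inflorescence. CYP79F1 had the second largest smaller ratio among named members, 24.3-fold. CYP79F1 and CYP79F2, like MAM1 and IMS2, are similar in sequence, and how the counting split reads between such copies is not given, so the division within each pair is uncertain.

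Side chains are oxidized by flavin monooxygenases. FMO GS-OX1 had 5.47 FPKM in silique, 82.5 FPKM in leaf and 0.344 FPKM in inflorescence, and FMO GS-OX3 had 9.02 FPKM in silique, 111 FPKM in leaf and 0.902 FPKM in inflorescence. Their relative FMO GS-OX4 was not a member, with 25.5 FPKM in silique, 19.0 FPKM in leaf and 10.5 FPKM in inflorescence. FMO GS-OX2 had 5.77 FPKM in silique, 8.34 FPKM in leaf and 12.9 FPKM in inflorescence, its highest organ. The monooxygenases of one family thus took different organ patterns in these libraries.

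The other listed genes of the pathway show where it departs from the rule. MYB28, a transcription factor that switches the pathway on, had 21.6 FPKM in silique, 195 FPKM in leaf and 14.2 FPKM in inflorescence, and thus missed the limit on the silique side only. The core enzymes SUR1, SOT17 and SOT18 were likewise more than 4-fold higher in leaf than in inflorescence and less than 4-fold higher in silique; SUR1, the C-S lyase shared with indole glucosinolates, had 24.5 FPKM in silique, 208 FPKM in leaf and 24.7 FPKM in inflorescence. GSTF11, a glutathione transferase, was under both the minimum and the 4-fold limit on the silique side, with 2.71 FPKM in silique, 59.1 FPKM in leaf and 0.292 FPKM in inflorescence. AOP3 ran the other way, with 75.3 FPKM in silique, 0.221 FPKM in leaf and 0.374 FPKM in inflorescence. The median smaller log2 ratio of the 18 genes was 1.90, against -0.12 over all loci that passed the minimum. None of 7 indole glucosinolate genes and none of 9 glucosinolate breakdown genes was a member, and their medians were 0.85 and -0.68.

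Shared positions add candidates for the same pathway without naming a gene. One identifier at 6843662 to 6849497 on chromosome 3, an interval that holds IKU2 and BCAT4, had 72.7 FPKM in silique, 894 FPKM in leaf and 1.37 FPKM in inflorescence. BCAT4 is the aminotransferase that starts methionine elongation, and IKU2 is a receptor kinase of seed growth. The second identifier at the position was at 0.0346 FPKM in silique, 0.0358 FPKM in leaf and 0.0146 FPKM in inflorescence. Another at 4576202 to 4581374 on chromosome 5, where IMD1 and AT5G14210 lie, had 52.4 FPKM in silique, 358 FPKM in leaf and 2.45 FPKM in inflorescence. IMD1 is an isopropylmalate dehydrogenase of the elongation cycle. The second identifier at this position, no member, had 12.1 FPKM in silique, 21.7 FPKM in leaf and 29.6 FPKM in inflorescence. In both member identifiers leaf was highest, as in 104 of the 154 members, while the rule itself sets inflorescence lowest. Their order therefore does not tie them to the pathway, and which gene each identifier stands for cannot be told. The locus named AT3G58980 by position also touches IPMI1, a listed gene of the pathway. It was a member with 26.0 FPKM in silique, 205 FPKM in leaf and 3.62 FPKM in inflorescence, and the part of IPMI1 in these values cannot be told.

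**Figure D4:**
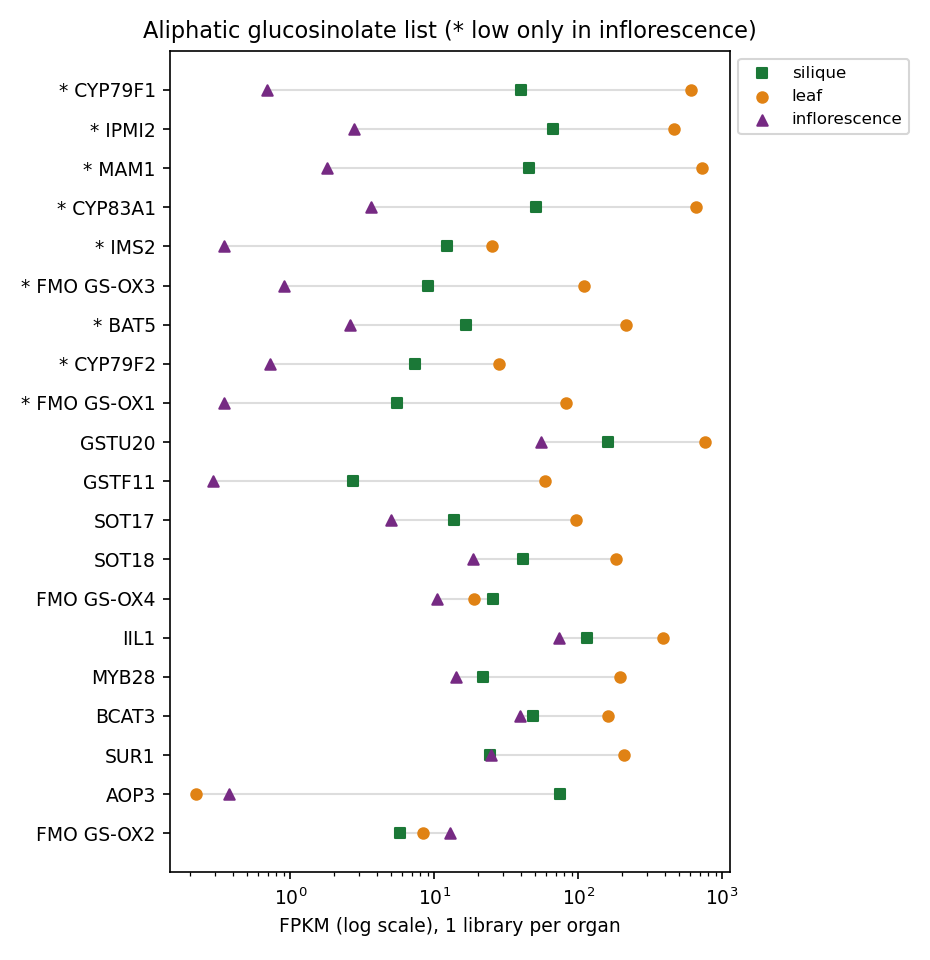
The x axis gives FPKM on a log scale and each row a named gene of the aliphatic glucosinolate list, with 1 point each for silique (square), leaf (circle) and inflorescence (triangle), ordered by the smaller of the ratios to inflorescence; an asterisk marks members. The 9 members all run from inflorescence on the left through silique to leaf on the right, while AOP3, FMO GS-OX2, FMO GS-OX4 and SUR1 depart from that order.

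Among the light reaction genes the members were antenna proteins, which bind chlorophyll and pass light energy to the photosystems. Not every listed antenna gene that passed the minimum was a member. In LHCA2, LHCB4.1 and LHCB5 inflorescence was lowest, but silique was less than 4-fold above it. LHCB4.3 had 151 FPKM in silique, 52.7 FPKM in leaf and 92.5 FPKM in inflorescence. LHB1B1, a subunit of the main antenna of photosystem II, had 94.1 FPKM in silique, 278 FPKM in leaf and 6.03 FPKM in inflorescence. The 3 LHCB2 genes, which encode the subunit whose phosphorylation helps shift light energy between photosystems, were all members. LHCB2.1 had 264 FPKM in silique, 141 FPKM in leaf and 26.5 FPKM in inflorescence. LHCB2.2 had 194 FPKM in silique, 114 FPKM in leaf and 21.3 FPKM in inflorescence. LHCB2.3 had 72.7 FPKM in silique, 47.6 FPKM in leaf and 10.1 FPKM in inflorescence. All 3 were higher in silique than in leaf, unlike LHB1B1 and unlike the 9 glucosinolate members. LHCA1, an antenna protein of photosystem I, had 727 FPKM in silique, 822 FPKM in leaf and 143 FPKM in inflorescence.

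The antenna genes are members of families with near-identical copies, so their separate values are uncertain. LHB1B2 lies with RWA3 and AT2G08665 in a shared interval 1187 bp from LHB1B1, where 1 identifier had 2301 FPKM in silique, 1934 FPKM in leaf and 205 FPKM in inflorescence, the highest level in the set. CAB2 and CAB3 both touch an unnamed locus that had 826 FPKM in silique, 243 FPKM in leaf and 47.1 FPKM in inflorescence. Their close relative CAB1 was no member, at 3172 FPKM in silique, 6314 FPKM in leaf and 2087 FPKM in inflorescence. The shared interval of LHCA4 and ATSMC2 gave 1445 FPKM in silique, 1350 FPKM in leaf and 321 FPKM in inflorescence, and that of LHCB3 and ATM2 gave 796 FPKM in silique, 686 FPKM in leaf and 141 FPKM in inflorescence.

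The remaining 20 light reaction genes that passed the minimum were all under 4-fold on the silique side, and 12 of them reached 4-fold on the leaf side. LHCA3, another antenna protein of photosystem I, had 1033 FPKM in silique, 2049 FPKM in leaf and 310 FPKM in inflorescence. PSBO1, a subunit of the oxygen-evolving complex, had 1387 FPKM in silique, 3361 FPKM in leaf and 789 FPKM in inflorescence. NPQ4, the PsbS protein of photoprotection, had 986 FPKM in silique, 2102 FPKM in leaf and 340 FPKM in inflorescence. Members and other genes of the list overlapped in their inflorescence level: LHB1B1 and the LHCB2 genes were between 6.03 and 26.5 FPKM and LHCA1 at 143 FPKM, while the non-members NPQ1, which converts violaxanthin to zeaxanthin, and PGR5, of cyclic electron flow, were at 16.7 and 70.0 FPKM. The median smaller log2 ratio was 0.96 over the 25 light reaction genes, 0.86 over the 15 carbon fixation genes and 0.87 over the 15 photorespiration genes, all above the -0.12 over all loci.

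**Figure D5:**
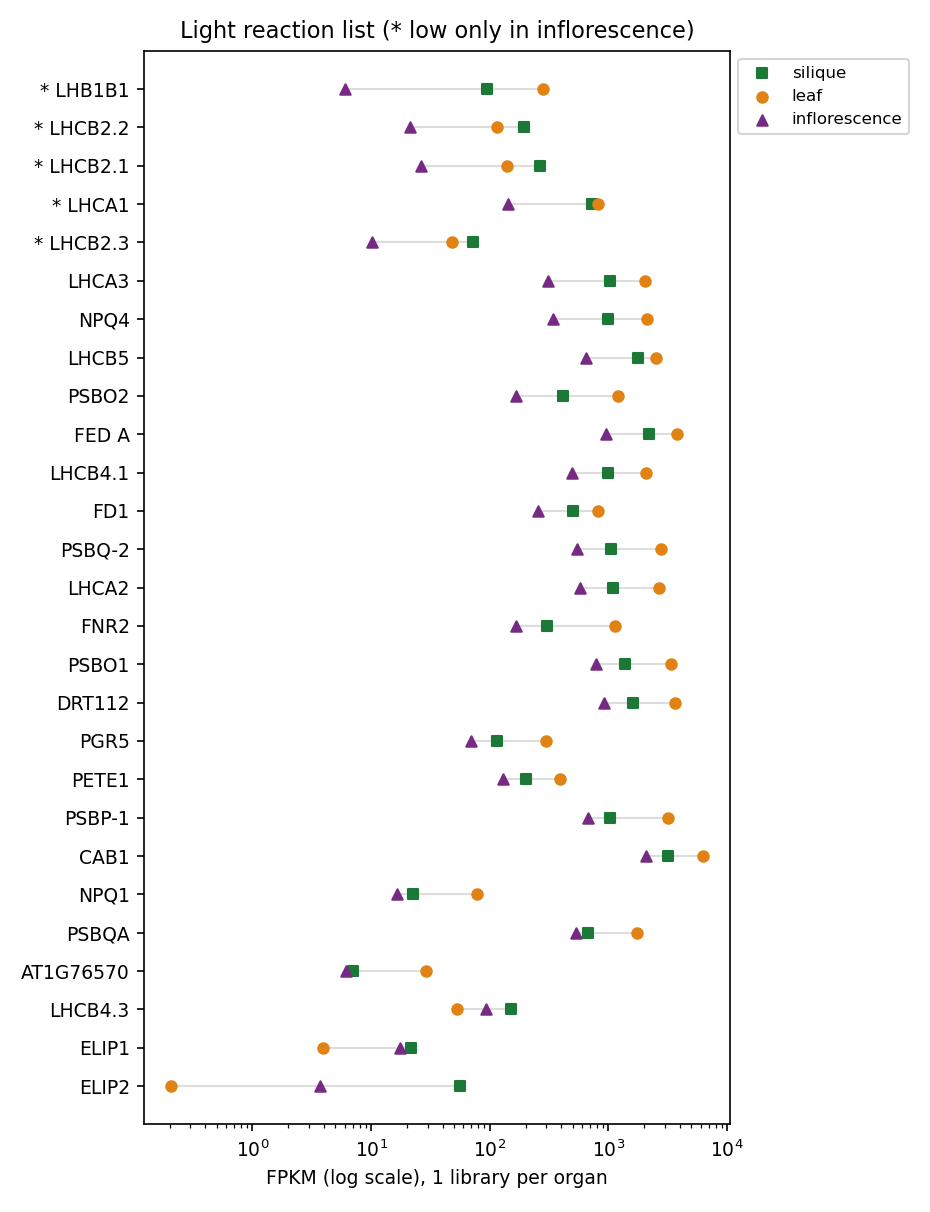
The x axis gives FPKM on a log scale and each row a named gene of the light reaction list, with 1 point each for silique (square), leaf (circle) and inflorescence (triangle), ordered by the smaller of the ratios to inflorescence; an asterisk marks members. The 5 members are antenna genes, and in the LHCB2 genes the silique point lies to the right of the leaf point.

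FT encodes florigen, the protein that moves from leaf to shoot tip and induces flowering. It had 206 FPKM in silique, 123 FPKM in leaf and 16.3 FPKM in inflorescence, so its transcript was higher in the fruit than in the organ where it is classically studied. It lies at 24331428 to 24333934 on chromosome 1. AT1G65486 and AT1G65490, both members without a symbol, begin further along at 24349523 and 24354771. AT1G65486 had 45.4 FPKM in silique, 45.4 FPKM in leaf and 4.98 FPKM in inflorescence, and AT1G65490 had 152 FPKM in silique, 324 FPKM in leaf and 9.25 FPKM in inflorescence. The other 7 flowering time genes that passed the minimum were not members.

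The clock members were PRR7, a repressor of the morning loop, and GI, an evening protein that also acts upstream of FT. PRR7 had 17.1 FPKM in silique, 17.0 FPKM in leaf and 2.46 FPKM in inflorescence, and GI had 21.3 FPKM in silique, 17.9 FPKM in leaf and 2.74 FPKM in inflorescence. In both, silique and leaf were nearly equal. PIL6, also called PIF5, a phytochrome-interacting factor, had 12.7 FPKM in silique, 40.9 FPKM in leaf and 1.04 FPKM in inflorescence. Transcripts of these genes cycle over the day, and the hour of harvest is not given for any organ, so organ and hour cannot be told apart. The median smaller log2 ratio over the 18 clock genes was 0.36.

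The 3 members from the cold, drought and abscisic acid list encode proteins that accumulate under water loss. RAB18, a dehydrin, had 72.9 FPKM in silique, 44.8 FPKM in leaf and 3.20 FPKM in inflorescence. LTI78, also known as RD29A, had 10.5 FPKM in silique, 17.5 FPKM in leaf and 1.31 FPKM in inflorescence, and LTI30 was described above. RAB18 and LTI30 were higher in silique than in leaf and LTI78 was higher in leaf. The other 18 genes of the list that passed the minimum were not members. Silique was less than 4-fold over inflorescence in 17 of those 18, and leaf in 17. ERD6, a sugar transporter first found as an early dehydration gene, had 94.9 FPKM in silique, 80.1 FPKM in leaf and 10.4 FPKM in inflorescence. HSP90.1, the heat-inducible cytosolic chaperone, had 13.9 FPKM in silique, 15.8 FPKM in leaf and 1.98 FPKM in inflorescence. Whether handling at harvest differed between organs is not given, and its part in these values was not tested.

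PCC1, a small membrane protein linked to pathogen defence and to flowering, had 39.1 FPKM in silique, 778 FPKM in leaf and 0.816 FPKM in inflorescence. Its ratio of silique over inflorescence was 22.1-fold, the third largest smaller ratio among named members. AT3G22235, given above, lies 7813 bp away from it on chromosome 3 and showed the same order. UGT74F2, a glycosyltransferase of salicylic acid, had 21.3 FPKM in silique, 53.5 FPKM in leaf and 4.07 FPKM in inflorescence. PEN3, a transporter of the plasma membrane in resistance to fungi, had 112 FPKM in silique, 292 FPKM in leaf and 23.4 FPKM in inflorescence, and SYP122, a syntaxin of the same membrane, had 58.0 FPKM in silique, 48.4 FPKM in leaf and 9.92 FPKM in inflorescence. WRR4, an immune receptor against white rust, had 20.4 FPKM in silique, 33.3 FPKM in leaf and 2.37 FPKM in inflorescence. HIR2, a hypersensitive-induced reaction protein, had 24.4 FPKM in silique, 82.8 FPKM in leaf and 2.13 FPKM in inflorescence. Of these defence genes SYP122 alone was higher in silique than in leaf. Of the salicylate and pathogen list, 23 of 31 named genes were under 5 FPKM in silique or leaf and could not enter the set. Over all 26613 named loci, 10187 passed that minimum. PCC1 was the only member among the 8 listed genes that passed. In the other 7, silique was less than 4-fold over inflorescence in 6 and leaf in 4. The median smaller log2 ratio of the 8 was 0.55.

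Transport and nutrient genes included some of the strongest transcripts. SWEET11, a sucrose exporter that supplies the phloem, had 237 FPKM in silique, 799 FPKM in leaf and 49.7 FPKM in inflorescence. FSD1, the iron superoxide dismutase made when copper is scarce, had 415 FPKM in silique, 420 FPKM in leaf and 85.6 FPKM in inflorescence. PHT4;1, a thylakoid phosphate transporter, had 24.2 FPKM in silique, 40.2 FPKM in leaf and 5.19 FPKM in inflorescence. SWEET11 leaned to leaf, while FSD1 was even between silique and leaf. LSU1, a gene of sulphur deficiency, is the only reference gene touching an unnamed locus that had 7.42 FPKM in silique, 39.8 FPKM in leaf and 1.08 FPKM in inflorescence.

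Cytochromes P450, oxidases of specialised metabolism, were the family with most members: 8 of the 43 that passed the minimum, or 18.6%, against 1.10% of all named loci. The 3 glucosinolate enzymes given above are among these 8. CYP71B12 had 21.1 FPKM in silique, 46.4 FPKM in leaf and 2.88 FPKM in inflorescence, and the adjacent CYP71B13 had 8.18 FPKM in silique, 21.1 FPKM in leaf and 0.817 FPKM in inflorescence. CYP706A1 had 70.7 FPKM in silique, 68.4 FPKM in leaf and 14.2 FPKM in inflorescence, CYP72A8 had 38.2 FPKM in silique, 89.1 FPKM in leaf and 7.60 FPKM in inflorescence, and CYP76C6 was low throughout with 5.73 FPKM in silique, 8.86 FPKM in leaf and 0.525 FPKM in inflorescence. Of 25 families sorted by the start of the reference symbol, 6 had a member, the other five with 1 each. That sorting misses genes under another symbol, such as the members EXGT-A3, AT2G46690 and AT1G72430 described below. GSTF7, a glutathione transferase, had 6.36 FPKM in silique, 45.8 FPKM in leaf and 0.448 FPKM in inflorescence, CRK41, a cysteine-rich receptor-like kinase, had 8.33 FPKM in silique, 14.2 FPKM in leaf and 0.686 FPKM in inflorescence, and MLP43, a major latex protein-like protein, had 40.7 FPKM in silique, 75.9 FPKM in leaf and 4.16 FPKM in inflorescence. All 3 were higher in leaf than in silique. No WRKY factor (of 19), MYB factor (of 16), NAC factor (of 16) or ERF factor (of 11) was a member. At a share of 1.10%, families this small would mostly hold none, so the absence sets none of them apart. The families, like the lists, were chosen with earlier results of these data known.

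Several further members, brought together by their reference names after their values were seen, encode proteins of the wall and cell surface. FLA13, a fasciclin-like arabinogalactan protein, had 308 FPKM in silique, 145 FPKM in leaf and 15.4 FPKM in inflorescence. LRX3, a leucine-rich repeat extensin that binds the wall, had 339 FPKM in silique, 163 FPKM in leaf and 27.3 FPKM in inflorescence. AGP17, an arabinogalactan protein, had 160 FPKM in silique, 87.9 FPKM in leaf and 15.9 FPKM in inflorescence. These 3 were all higher in silique than in leaf. PHI-1, known from phosphate-induced growth of cultured tobacco cells, had 167 FPKM in silique, 65.7 FPKM in leaf and 14.2 FPKM in inflorescence. AT4G19420, whose synonym PAE8 stands for a pectin acetylesterase, had 391 FPKM in silique, 310 FPKM in leaf and 61.4 FPKM in inflorescence. EXGT-A3, a xyloglucan endotransglucosylase, had 244 FPKM in silique, 384 FPKM in leaf and 48.9 FPKM in inflorescence, and was higher in leaf. In the secondary wall list none of 10 genes was a member, and its median smaller log2 ratio was -1.19. Of the families sorted by symbol, which leave EXGT-A3 out, none of 8 xyloglucan endotransglucosylases and none of 10 expansins was a member. Their medians were -0.53 and -1.60, so these picked genes do not stand for wall genes at large.

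Growth regulators among the members differed in balance too. IBH1, a helix-loop-helix repressor of cell elongation, had 83.8 FPKM in silique, 28.9 FPKM in leaf and 5.04 FPKM in inflorescence. AT2G46690, with the synonym SAUR32, had 24.0 FPKM in silique, 136 FPKM in leaf and 4.61 FPKM in inflorescence. AT1G72430, with the synonym SAUR78, had 110 FPKM in silique, 435 FPKM in leaf and 25.2 FPKM in inflorescence. SAUR genes are small auxin-upregulated RNAs, and both of these were higher in leaf whereas IBH1 was higher in silique. AT4G13840, with the synonym CER26, a protein of very-long-chain wax synthesis, had 66.4 FPKM in silique, 44.8 FPKM in leaf and 4.50 FPKM in inflorescence, and was not in the wax list given above. Some transcription factors stood among the members as well. AGL87, a MADS-box factor, had 48.9 FPKM in silique, 26.1 FPKM in leaf and 4.07 FPKM in inflorescence. NF-YA6, a subunit of the CCAAT-binding factor, had 22.6 FPKM in silique, 22.3 FPKM in leaf and 4.07 FPKM in inflorescence. RL6, a small MYB-like protein related to RADIALIS of snapdragon, had 19.0 FPKM in silique, 41.0 FPKM in leaf and 3.34 FPKM in inflorescence. Their silique to leaf balance thus covered both directions.

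MSRB4 and MSRB6, methionine sulfoxide reductases that lie 6826 bp apart on chromosome 4, took opposite sides. MSRB6 had 56.5 FPKM in silique, 18.4 FPKM in leaf and 0.203 FPKM in inflorescence, while MSRB4 had 27.5 FPKM in silique, 49.7 FPKM in leaf and 0.891 FPKM in inflorescence. AER, a reductase that detoxifies reactive alkenals, had 52.6 FPKM in silique, 95.8 FPKM in leaf and 9.53 FPKM in inflorescence. PYD4, named for pyrimidine degradation, had 26.6 FPKM in silique, 23.2 FPKM in leaf and 4.29 FPKM in inflorescence.

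The reference gives 57 of the 112 named members a code and no symbol. Their levels ran up to 623 FPKM in silique with a median of 30.2, up to 1294 FPKM in leaf with a median of 44.7, and up to 61.4 FPKM in inflorescence with a median of 3.48. AT2G25450 had 623 FPKM in silique, 504 FPKM in leaf and 50.7 FPKM in inflorescence. AT4G12900 had 100 FPKM in silique, 56.7 FPKM in leaf and 3.48 FPKM in inflorescence. AT1G73600 had 118 FPKM in silique, 304 FPKM in leaf and 12.7 FPKM in inflorescence, and AT3G04210 had 31.2 FPKM in silique, 134 FPKM in leaf and 3.64 FPKM in inflorescence. AT2G25735 and AT5G54710 were lower, the first with 27.3 FPKM in silique, 36.3 FPKM in leaf and 1.11 FPKM in inflorescence, and the second with 21.2 FPKM in silique, 24.8 FPKM in leaf and 2.37 FPKM in inflorescence. AT1G33760 lay at the silique end of the balance, with 45.6 FPKM in silique, 11.3 FPKM in leaf and 1.69 FPKM in inflorescence.

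Loci listed at 0 in inflorescence and very short loci need separate mention. AT2G13422 had 521 FPKM in silique, 561 FPKM in leaf and was listed at 0 in inflorescence, the largest smaller ratio of all. Its interval, at 5588218 to 5588322 on chromosome 2, is 105 bp wide and lies inside the larger reference gene AT2G13420, so strand and length both bear on its value. AT4G05071 is 144 bp wide and had 15.5 FPKM in silique, 13.7 FPKM in leaf and 0 listed in inflorescence. An exact 0 in such a table can be a failed estimate, and at these widths few fragments suffice for a high FPKM. The other loci listed at 0 in inflorescence were AT1G59930, with 29.9 FPKM in silique and 6.91 FPKM in leaf, and 3 identifiers at shared positions. A pair of those shares 20151163 to 20152572 on chromosome 5 with AT5G49640 and AT5G49645; one identifier had 43.0 FPKM in silique and 67.4 FPKM in leaf, and the other 14.1 FPKM in silique and 72.3 FPKM in leaf. The last lies at XGD1, a xylogalacturonan xylosyltransferase, and had 25.6 FPKM in silique and 167 FPKM in leaf, while a second identifier at that position had 26.7 FPKM in silique, 33.5 FPKM in leaf and 4.22 FPKM in inflorescence.

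Some unnamed members touch only 1 reference gene or were among the highest in level. The locus at PSK4, a phytosulfokine peptide precursor, had 585 FPKM in silique, 421 FPKM in leaf and 50.2 FPKM in inflorescence. A position with AT2G30690 and AT2G30695 carries 4 identifiers, and 1 of them was a member with 305 FPKM in silique, 825 FPKM in leaf and 47.3 FPKM in inflorescence. The locus touching AT1G19960 had 11.0 FPKM in silique, 352 FPKM in leaf and 1.91 FPKM in inflorescence, among the widest gaps between leaf and silique in the set. The other nearest loci inside the limit were also unnamed, at 4.02-fold, 4.03-fold and 4.04-fold.

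Members lay closer together and spanned shorter intervals than the other loci that passed the minimum. Another member at a different position lay within 10 kb of 20 of the 154 loci (13.0%), whereas 3.35% of the other loci had a neighbour of the same kind. Members that share 1 position were not counted as neighbours of each other. Adjacent named members came in 4 pairs: CYP79F2 with CYP79F1, MAM1 with IMS2, CYP71B12 with CYP71B13, and AT1G76955 with AT1G76960. The first 3 of these pair related genes, as do MSRB4 and MSRB6, so neighbours in the set are often copies that share sequence and are not independent. Among loci alone at their position, the median interval was 1684 bp for the 122 members and 2349 bp for the others. Intervals under 1000 bp made up 28.7% of those members, 35 loci, and 7.92% of the others. FPKM of short loci rests on fewer fragments, and the part of this in the selection was not tested.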

How the data were processed

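Total RNA of silique, leaf and inflorescence was sequenced with 1 library per organ. The deposited values are FPKM per locus, per the file headers, with the same 33857 identifiers in every library; the submitters' processing notes list TopHat and TAIR10. Not given in the sources used here are the quantification tool, its gene models and its scaling. FPKM is relative within a library: a strong rise of a few transcripts pulls the rest down. The summed FPKM was 1066360 in silique, 1274230 in leaf and 903233 in inflorescence. Depth is unknown.

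Ratios used (FPKM + 1). Loci were named by position from a TAIR10.1 gene table where 1 gene and 1 identifier overlapped by at least 50% of each other; printed positions follow the files, with the first base as 1. Members, lists and rules were chosen with earlier results of these data known. Named loci were the 25 with the largest smaller ratio at 20 FPKM or more in silique and leaf, the 10 highest in level, those listed at 0 in inflorescence, the 5 at each end of the silique to leaf balance, the 4 nearest the limit on each side, list and family members and adjacent pairs. PEN3, SYP122, WRR4, ERD6, PHT4;1, AER, PYD4, AT3G58980 and the wall and growth genes were picked with their values in view. So were the transcription factors AGL87, NF-YA6 and RL6 and the listed genes that missed the rule. All steps were run with Python 3.11.15 and pandas 2.3.3. The selection rule was tested on data simulated at an assumed depth, and the naming on intervals copied from the gene table. The list counts were not tested in this way. Planned promoter motif counts were not made, since no promoter sequence was used here.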

Additional observations from a re-analysis of the deposited data

How the results depend on the processing

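The size of the set depends on where the limit is put. Against 154 loci, a pseudocount of 5 FPKM left 56, a minimum of 20 FPKM left 97, a limit of 2-fold gave 688 and one of 8-fold gave 35. A pseudocount of 0.1 gave 200, a minimum of 1 FPKM or none gave 161, and scaling the libraries to a common median, upper quartile or sum without the 100 highest loci left 123, 126 and 112, all among the original 154. In these counts inflorescence has the smallest summed FPKM, and the 3 scalings raise its values. Without shared positions 122 loci remained, and without loci under 200 bp, an alternative added after the data were seen, 151.

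The next counts compare silique with leaf inside the 154 members, and their folds are not the limit of the rule. Silique exceeded leaf by at least 4-fold in 1 member. It did so in 4 with a pseudocount of 0.1 or a common median, and in 3 with that sum. With a pseudocount of 5, or in the 112 named members alone, it did in 0. Asking 2-fold between silique and leaf gave 13 members, and 8-fold gave 0. Leaf exceeded silique by at least 4-fold in 31 members and in 20 of the named members. At 2-fold it did in 56 members and at 8-fold in 13. Shares over all loci were not set beside these counts. Of 62 named loci followed, 62 stayed members at a pseudocount of 0.1, which can only raise their ratios. At a pseudocount of 5 it was 39, at 8-fold 29 and under the scalings 53 to 55. None reversed, but a changed pseudocount or limit cannot reverse a ratio, and the loci were chosen at 4-fold or more. The lack of reversals therefore carries no support. The 9 aliphatic glucosinolate members were 9 under each scaling, 4 with a pseudocount of 5 or a minimum of 20 FPKM and 5 at 8-fold; the 5 light reaction members were 4 under each scaling or with a pseudocount of 5, 5 with a minimum of 20 FPKM and 1 at 8-fold. No paired analysis was possible because each organ had 1 library. No replicate could be left out, and promoter motifs were not run.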
